A study of Schizosaccharomyces pombe with 24 samples.

Results

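The fission yeast strain cft1-L249Q, in which a leucine of Cft1 is replaced by glutamine, was set against the wild type (WT) over all annotated genes. Its 3 libraries and the 3 WT libraries are 6 of the 24 poly(A)+ RNA-seq libraries of the series. They were chosen by their labels alone, and 6287 of the 6988 genes in the count table passed the filter on low counts and were tested. All strains are haploid Schizosaccharomyces pombe, harvested in log phase at 30 °C in YES, a rich medium of yeast extract with supplements, as 3 biological replicates each. The cft1-L249Q strain has mating type h+ and carries no marker at asp1. The other 6 mutants are all h-. In detail, pla1-Y86L carries kanMX at its own locus, and ysh1-L74F, pta1-T524M, msi2-G252E, pfs2-V180F and pfs2-E104A carry a wild-type asp1 allele marked with kanMX. WT is h- with no marker in its label. Mutation and mating type therefore differ together between cft1-L249Q and every other group, and their effects cannot be told apart in these libraries.

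Cft1 is a large subunit of the cleavage and polyadenylation factor, the complex that cuts a nascent transcript at its poly(A) site, adds the tail and takes part in the termination of RNA polymerase II. In fission yeast the phosphate acquisition genes pho1, pho84 and tgp1 lie downstream of lncRNA genes, and transcription of the lncRNA across the mRNA promoter represses the mRNA. Termination of the lncRNA before that promoter relieves the repression, so the 3′ processing machinery and the inositol pyrophosphates made and broken down by Asp1 both bear on these genes. The comparison asks which transcripts stand at another level when Cft1 carries this single change, and a second contrast, with no WT library in it, asks where cft1-L249Q differs from the mean of the other 6 mutants.

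The libraries held 22158173 to 24327873 assigned reads in cft1-L249Q and 25300151 to 28105939 in WT, within 19368216 to 29297880 over the series. Levels are given in CPM, counts per 1000000 reads after TMM scaling, a library-size correction that assumes most genes do not move. CPM is a share of the library and is not corrected for gene length, so levels are compared between strains and not between genes. Bulk RNA does not tell fewer cells with a transcript from less of it per cell. No replicate pair was a repeat of one library: the chi-square per degree of freedom between replicates was 10.6 to 23.8 in cft1-L249Q, where replicate 1 lay farther from replicates 2 and 3 than those lay from each other, and 6.68 to 12.1 in WT. The cft1 mRNA itself, which a point mutation need not remove, stood at 174, 177 and 180.2 CPM in the cft1-L249Q libraries, against 161, 163 and 161 CPM in the WT libraries (log2 fold change 0.13 ± 0.04 (SE), adjusted p = 0.00501), and its level did not differ detectably from the other 6 mutants (0.00 ± 0.03 (SE), adjusted p = 0.968).

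Against WT, edgeR's quasi-likelihood test with Benjamini-Hochberg adjustment over all 6287 genes called 2723 genes (43.3%) at an adjusted p under 0.05. Of these, 1405 (22.3%) rose and 1318 (21%) fell, and the median log2 fold change of all genes was 0.00. Most differences were small: 105 genes (1.67%) rose and 56 (0.891%) fell by at least 2-fold. All 3 cft1-L249Q libraries lay above all 3 WT libraries for 1598 genes (25.4%) and below them for 1444 (23%). Among the 5004 protein-coding genes tested, 1150 rose (23%) and 1146 fell (22.9%). Against the mean of the other 6 mutants 2249 genes (35.8%) were called, 1265 higher (20.1%) and 984 lower (15.7%), and at least 2-fold apart were 26 (0.414%) and 40 (0.636%). In both contrasts, at least 2-fold and in the same direction, 16 genes (0.254%) were higher and 15 (0.239%) lower. Without cft1-L249Q replicate 1 the higher ones numbered 10, and without cft1-L249Q replicate 2 the lower ones numbered 23. Rose, fell and changed are used below only of genes called, and every adjusted p is from this fit. Members of a list or class called against WT are to be read against the 22.3% higher and 21% lower among all genes tested. Those called against the other 6 mutants are to be read against 20.1% higher and 15.7% lower. Where a list below held no called gene in a direction, edgeR's count at an unadjusted p under 0.05 and the DESeq2 count were 0 too, except for 1 higher zinc or copper gene and 1 lower thiamine-regulated gene at an unadjusted p.

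The phosphate genes were low in the mutant, and the lncRNAs upstream of pho1 and pho84 were high. The mRNA of pho1, the cell-surface acid phosphatase, was at 215, 241 and 262 CPM in the cft1-L249Q libraries, against 1178, 1291 and 1156 CPM in the WT libraries (log2 fold change -2.34 ± 0.08 (SE), adjusted p = 1.54e-15). The mRNA of pho84, the phosphate transporter of the plasma membrane, was at 349, 399 and 394 CPM in the cft1-L249Q libraries, against 1539.9, 1495 and 1433 CPM in the WT libraries (log2 fold change -1.97 ± 0.08 (SE), adjusted p = 2.32e-14). No cft1-L249Q library came near the lowest WT library for either gene. The mRNA of tgp1, a transporter of glycerophosphodiesters, fell far less, to 18.7, 18.0 and 19.2 CPM in the cft1-L249Q libraries, against 25.1, 22.2 and 24.2 CPM in the WT libraries (log2 fold change -0.35 ± 0.07 (SE), adjusted p = 2.89e-04). The lncRNA nc-pho1, listed in the annotation as the repressor of pho1 in cis, was at 7.06, 6.98 and 7.35 CPM in the cft1-L249Q libraries, against 3.92, 4.93 and 4.61 CPM in the WT libraries (log2 fold change 0.67 ± 0.10 (SE), adjusted p = 2.21e-05). The lncRNA prt2, upstream of pho84, was at 42.2, 42.4 and 41.3 CPM in the cft1-L249Q libraries, against 27.9, 26.9 and 24.9 CPM in the WT libraries (log2 fold change 0.66 ± 0.05 (SE), adjusted p = 5.93e-10). The groups did not overlap for either lncRNA. The lncRNA of tgp1, nc-tgp1, moved the other way, with 19.3, 19.2 and 18.3 CPM in the cft1-L249Q libraries, against 27.2, 26.9 and 25.0 CPM in the WT libraries (log2 fold change -0.48 ± 0.08 (SE), adjusted p = 3.04e-05). Each of these lncRNA genes overlaps its mRNA gene on the same strand in the annotation used for names, so reads in the shared stretch could be counted for either or for neither.

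Set against the other 6 mutants, the pho1 and pho84 levels of cft1-L249Q lay within the range of their libraries and below their mean. The pho1 level of their 18 libraries ran from 124 to 900.5 CPM, and cft1-L249Q differed from their mean by -0.25 ± 0.06 (SE), adjusted p = 0.00294. For pho84 they ran from 218 to 836 CPM, with a difference of -0.40 ± 0.06 (SE), adjusted p = 3.01e-05. The tgp1 difference of 0.07 and the prt2 difference of -0.04 were not called, and nc-pho1 was lower than in the others by -0.42 ± 0.07 (SE), adjusted p = 1.15e-04.

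**Figure D1:**
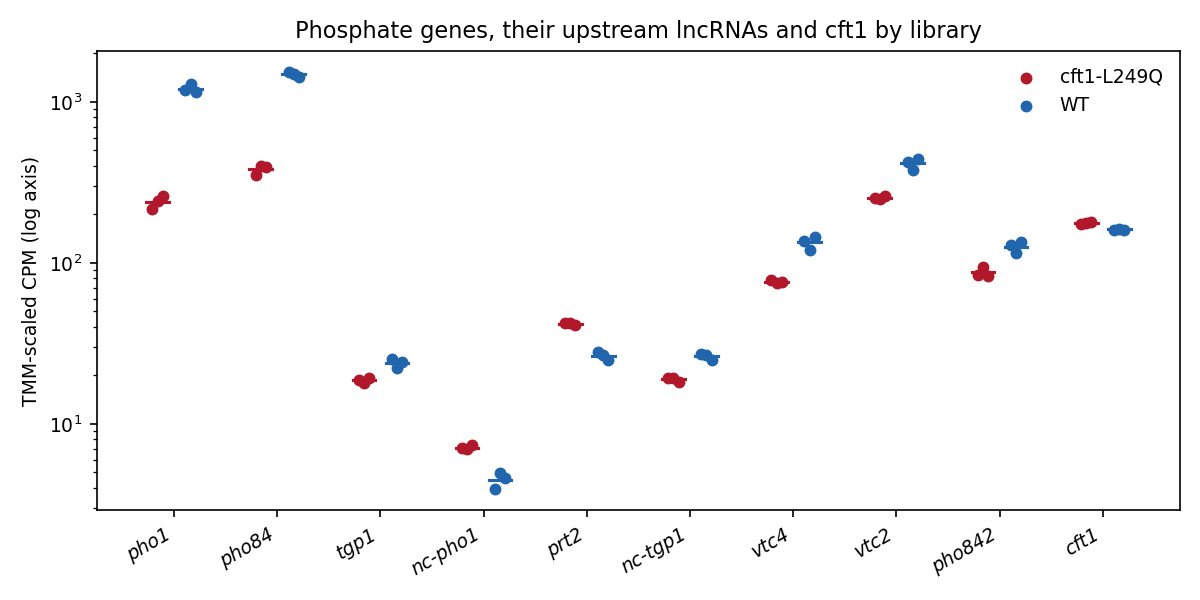
TMM-scaled CPM on a log axis in each of the 3 cft1-L249Q libraries (red, left) and the 3 WT libraries (blue, right), with bars at the group means, for 3 phosphate genes, the lncRNA upstream of each, 3 further phosphate genes and cft1. The groups of points are separate for each gene shown, with pho1 and pho84 farthest apart.

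Among 13 further genes of phosphate and inositol pyrophosphate metabolism, 4 fell and 3 rose, with a median log2 fold change of -0.03. The 3 that rose became 1 without cft1-L249Q replicate 1, without WT replicate 2, or from the 6 libraries alone. The falls were in vtc4 and vtc2, of the complex that makes polyphosphate in the vacuole membrane, in pho842, a second phosphate transporter gene, and in aps1, a hydrolase of diadenosine polyphosphates and inositol pyrophosphates. The vtc4 mRNA was at 78.5, 74.8 and 76.4 CPM in the cft1-L249Q libraries, against 136, 119 and 146 CPM in the WT libraries (log2 fold change -0.81 ± 0.07 (SE), adjusted p = 3.18e-09). The log2 fold changes of vtc2, pho842 and aps1 were -0.70, -0.52 and -0.31. The exopolyphosphatase gene ppx1 rose by 0.22. The asp1 mRNA stood at 127, 124 and 127 CPM in the cft1-L249Q libraries, against 127, 129 and 131 CPM in the WT libraries, a difference from WT of -0.03 that was not called. It was lower than in the other 6 mutants, 5 of which carry the marked asp1 allele, by -0.30 ± 0.04 (SE), adjusted p = 2.48e-06.

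Genes of the 3′ processing machinery itself were called about as often as all genes: of 24 cleavage, polyadenylation and termination factors 6 rose (25%) and 6 fell (25%), against 22.3% and 21% of all genes tested, with a median of -0.03. The largest change was in mpe1, the RBBP6-type ubiquitin ligase subunit of the cleavage and polyadenylation factor, at 172, 184 and 168 CPM in the cft1-L249Q libraries, against 102, 97.3 and 103 CPM in the WT libraries (log2 fold change 0.79 ± 0.04 (SE), adjusted p = 3.11e-12). The mpe1 level was also above the mean of the other 6 mutants, by 0.21 ± 0.03 (SE), adjusted p = 2.57e-05. The lower ones included ssu72, a phosphatase of the RNA polymerase II tail (-0.31), nab2, a nuclear poly(A)-binding protein (-0.29), seb1, which takes part in poly(A) site choice and termination (-0.28), and cft2, a further subunit of the factor (-0.24). Of 15 nuclear RNA surveillance genes 2 rose and 5 fell, all by little: the called changes with the largest size were iss10 (-0.18) and red1 (-0.15, lost without cft1-L249Q replicate 1). The 5 that fell became 2 without cft1-L249Q replicate 1, without WT replicate 3 or from the 6 libraries alone, and 3 without cft1-L249Q replicate 2 or WT replicate 1. The 2 that rose became 1 from the 6 libraries alone and without any 1 of cft1-L249Q replicates 1 and 2 and WT replicates 1 and 2. Of 12 transcripts that the Mmi1 pathway removes in growing cells, 1 rose and 1 fell. The one that rose was mcp7, a meiotic gene, with 39.5, 41.3 and 35.4 CPM in cft1-L249Q, against 19.6, 19.7 and 18.9 CPM in WT (log2 fold change 1.00 ± 0.08 (SE), adjusted p = 2.75e-09), and the one that fell was mug8 (-0.25, lost without cft1-L249Q replicate 3). In this list 2 fell with DESeq2, with the replicate block and without WT replicate 1, and 2 rose without cft1-L249Q replicate 1.

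The ribosomal protein genes fell almost as a block. Of 136 cytosolic ribosomal protein genes tested 121 fell (89%) and none rose, with a median log2 fold change of -0.29, a lowest value of -1.82 and a highest of -0.01. Of all genes tested, 21% fell. By subunit, 65 of 74 genes of the large subunit, 50 of 55 of the small subunit and 6 of 7 of the acidic stalk fell. Leaving out 1 library at a time gave 88 to 130. Their reads made up 16.5, 19.3 and 18.2% of the cft1-L249Q libraries, against 21.6, 21.4 and 20.7% of the WT libraries, a mean of 18.0 ± 1.40% in cft1-L249Q and 21.2 ± 0.453% in WT (SD, n = 3 each; exact two-sided permutation p = 0.1, the smallest that 3 against 3 allows). The 18 libraries of the other 6 mutants ran from 17.6 to 21.0%. Of the 136 genes, 40 were lower and 1 was higher than in those mutants (backgrounds 15.7% and 20.1%), with a median of -0.09.

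The falls were uneven between copies of the same protein. S. pombe encodes most ribosomal proteins in several gene copies with near-identical products, and similar copies can share reads, so a difference between copies is at most as sure as the counting that separates them. In 45 of 55 families with several tested copies every copy fell, and the median spread between the lowest and highest copy was 0.12 on the log2 scale. In 6 families the copies lay more than 0.5 apart. The widest was rpl16, where rpl1602 was at 335, 408 and 438 CPM in the cft1-L249Q libraries, against 1311, 1364 and 1498 CPM in the WT libraries (log2 fold change -1.82 ± 0.09 (SE), adjusted p = 5.70e-13). Its copies rpl1601 and rpl1603 had log2 fold changes of -0.86 and -0.30. The rps001 mRNA was at 376, 469 and 508 CPM in the cft1-L249Q libraries, against 1257, 1285 and 1401 CPM in the WT libraries (log2 fold change -1.54 ± 0.09 (SE), adjusted p = 2.89e-12), while rps002 had -0.37. The rps1002 mRNA was at 298, 398 and 369 CPM in the cft1-L249Q libraries, against 931, 917 and 952 CPM in the WT libraries (log2 fold change -1.40 ± 0.09 (SE), adjusted p = 3.03e-11), while rps1001 had -0.55. In the rps26 family rps2602 had -1.13 and rps2601 -0.18. The family members outside the naming rule were named after their values were seen. The copies rpl1602, rps001 and rps1002 also stood below the other 6 mutants, by -1.35 ± 0.08 (SE), adjusted p = 6.44e-12, by -1.10 ± 0.07 (SE), adjusted p = 5.10e-11 and by -1.01 ± 0.07 (SE), adjusted p = 4.57e-10.

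**Figure D2:**
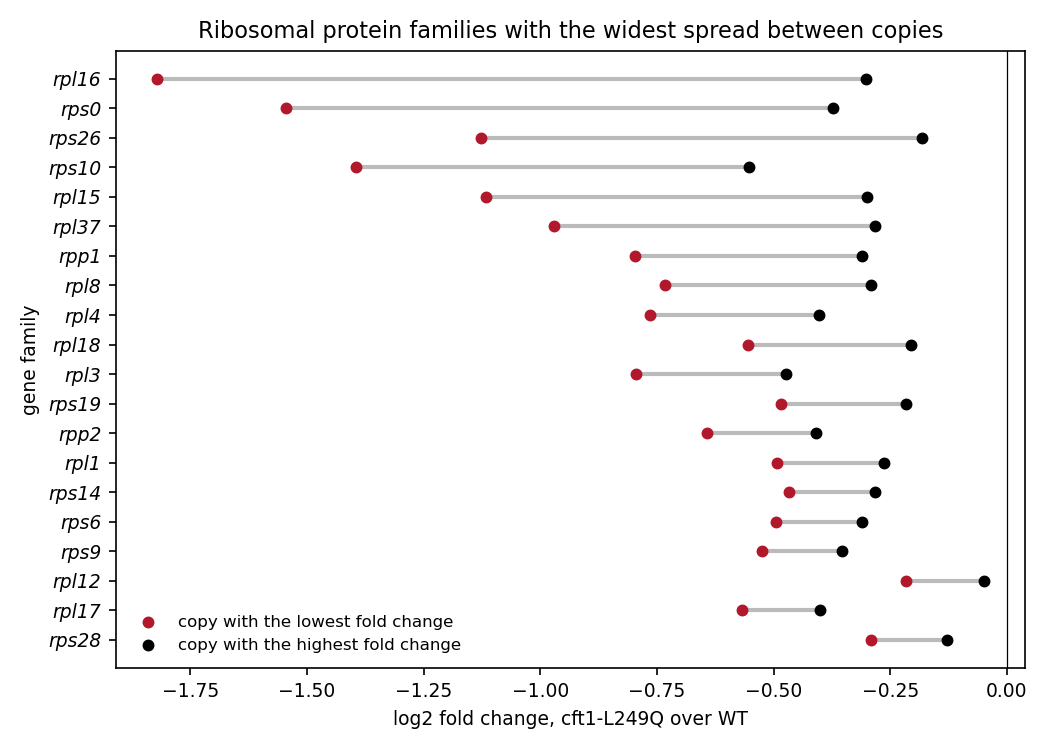
Log2 fold change of cft1-L249Q over WT for the copy with the lowest (red) and the copy with the highest (black) value in the 20 ribosomal protein families with the widest spread between copies. The lowest copies are rpl1602 at -1.82 and rps001 at -1.54, and all points lie below 0.

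Other parts of the translation apparatus fell as well. Of 14 translation factor genes 12 fell and none rose, with a median of -0.26. The genes of elongation factor EF-1 alpha fell most. Of these, tef101 was at 1329.6, 1527 and 1716 CPM in the cft1-L249Q libraries, against 3023, 3136 and 3591 CPM in the WT libraries (log2 fold change -1.09 ± 0.09 (SE), adjusted p = 1.06e-09), and tef103 and tef102 had log2 fold changes of -0.99 and -0.77; these copies are near-identical and can share reads. The gene of eEF3, tef3, fell by 0.48. Of the 14 genes 7 were lower and 1 was higher than in the other 6 mutants. Among 25 factors of ribosome biogenesis, 13 fell and none rose, with a median of -0.15, and none was called against the other 6 mutants by edgeR, where the median was -0.02. The 13 were 5 without cft1-L249Q replicate 2, 7 without WT replicate 1 and 5 without WT replicate 3. The nucleolin gene gar2 fell most, with 1215, 1259 and 1360.3 CPM in cft1-L249Q, against 1728, 1571 and 1879 CPM in WT (log2 fold change -0.43 ± 0.07 (SE), adjusted p = 5.72e-05). Of 75 mitochondrial ribosomal protein genes 17 rose and 10 fell, with a median of 0.01. The 10 became 5 without cft1-L249Q replicate 3 and 6 without WT replicate 2 or WT replicate 3.

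Glycolytic and fermentation genes were lower, and here cft1-L249Q also stood below the other mutants. Of 20 genes tested 13 fell and 2 rose, with a median of -0.37, and against the other 6 mutants 13 were lower and 3 higher, with a median of -0.35. The phosphoglycerate mutase gene gpm1 was at 1534, 1995 and 1966 CPM in the cft1-L249Q libraries, against 3626, 3638 and 3936 CPM in the WT libraries (log2 fold change -1.03 ± 0.08 (SE), adjusted p = 1.35e-09), and was lower than in the other 6 mutants by -1.07 ± 0.07 (SE), adjusted p = 5.10e-11. The aldolase gene fba1 was at 5242, 6936 and 6718 CPM in the cft1-L249Q libraries, against 11529.5, 11743 and 12308 CPM in the WT libraries (log2 fold change -0.91 ± 0.09 (SE), adjusted p = 1.67e-08). The enolase gene eno101 was at 2187, 2713 and 2891 CPM in the cft1-L249Q libraries, against 4090.4, 4148 and 4745 CPM in the WT libraries (log2 fold change -0.74 ± 0.09 (SE), adjusted p = 7.89e-07). All 3 mutant libraries lay below every WT library for these genes, and replicate 1 was the lowest for each. A second enolase gene, eno102, moved the other way, with 24.4, 22.5 and 19.9 CPM in the cft1-L249Q libraries, against 9.79, 9.07 and 9.48 CPM in the WT libraries (log2 fold change 1.24 ± 0.10 (SE), adjusted p = 1.41e-09), and was higher than in the other 6 mutants by 1.33 ± 0.07 (SE), adjusted p = 3.34e-12. The aldehyde dehydrogenase gene atd1 also rose (0.76). The pyruvate decarboxylase gene pdc102, at 0.225, 0.800 and 0.435 CPM in cft1-L249Q, against 0.333, 1.87 and 1.20 CPM in WT, lost its call without any 1 of 4 of these libraries. Reads of the list were 4.20, 4.80 and 4.77% of the cft1-L249Q libraries, against 5.73, 5.75 and 6.04% of the WT libraries, and 5.20 to 9.66% in the libraries of the other 6 mutants.

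Falls were most frequent among the genes with the most reads. Of the 501 protein-coding genes in the highest 10% by mean CPM 267 fell (53.3%) and 54 rose (10.8%), against 879 (19.5%) and 1096 (24.3%) of the other 4503. Without the ribosomal protein genes, 150 of 370 genes of this class fell (40.5%) and 54 rose. Against the other 6 mutants this class held 101 genes lower and 129 higher.

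**Figure D3:**
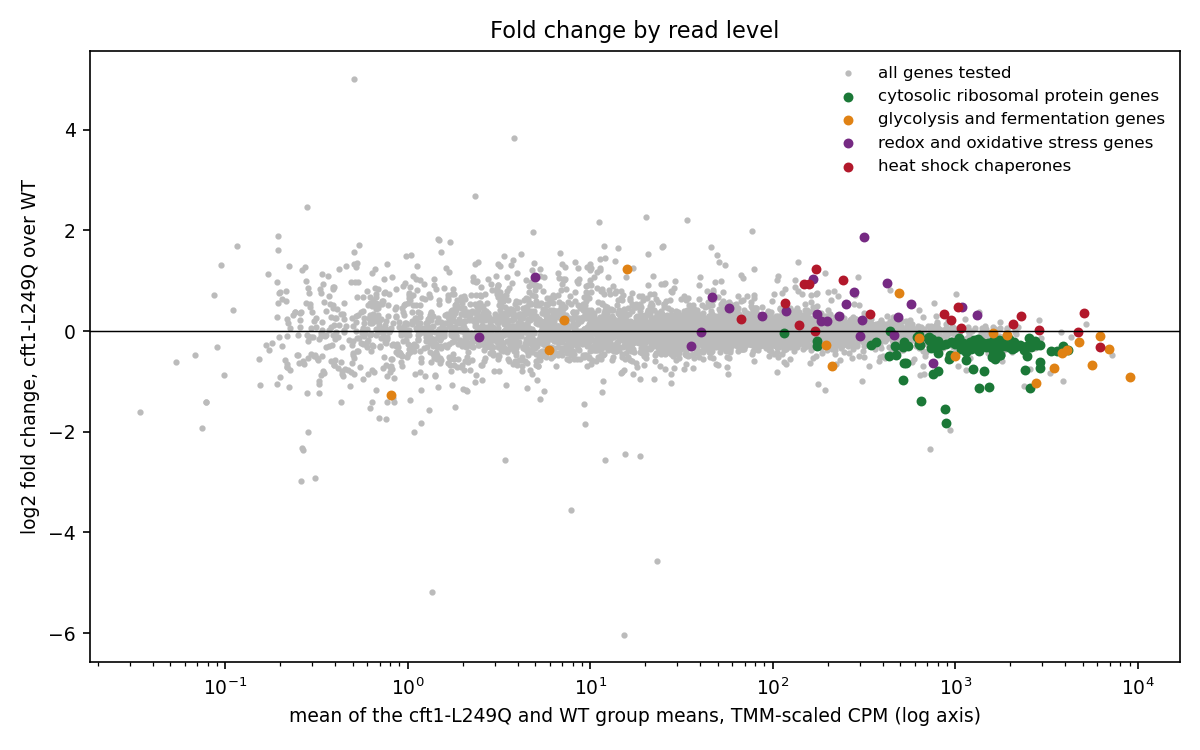
Log2 fold change of cft1-L249Q over WT against the mean of both group means in TMM-scaled CPM, on a log axis, for the 6287 genes tested (grey), with members of 4 gene lists in colour. Ribosomal protein genes lie below 0 at high read levels, while most redox genes and heat shock chaperones lie above 0.

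Genes of stress responses rose. The lists overlap by a few genes, and their reads together made up 4.58, 4.58 and 4.58% of the cft1-L249Q libraries, against 3.80, 3.63 and 3.72% of the WT libraries and 3.42 to 5.35% of the other libraries. Of 25 redox and oxidative stress genes 19 rose and 3 fell, with a median of 0.32. The glutathione S-transferase gene gst2 was at 558, 508 and 431 CPM in the cft1-L249Q libraries, against 131, 134 and 143 CPM in the WT libraries (log2 fold change 1.88 ± 0.08 (SE), adjusted p = 7.01e-14). The catalase gene ctt1, whose product removes hydrogen peroxide, was at 244, 224 and 201 CPM in the cft1-L249Q libraries, against 120.3, 97.1 and 109.8 CPM in the WT libraries (log2 fold change 1.03 ± 0.10 (SE), adjusted p = 1.55e-08). The ctt1 level was above the range of the other 6 mutants, 56.2 to 179.5 CPM, and differed from their mean by 1.15 ± 0.07 (SE), adjusted p = 1.34e-11. The sulfiredoxin gene srx1 rose by 1.07 and the pyridoxal reductase gene plr1 by 0.95. The peroxiredoxin gene tpx1, named after its value was seen, was the largest fall of the list, with 536, 666 and 578 CPM in cft1-L249Q, against 973, 876 and 916 CPM in WT (log2 fold change -0.64 ± 0.07 (SE), adjusted p = 1.59e-07).

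Of 23 general stress genes 15 rose and 2 fell, or 1 from the 6 libraries alone, with a median of 0.21. The gene rtc3, which codes for a protein of the SBDS family, was at 143, 123 and 101 CPM in the cft1-L249Q libraries, against 32.9, 33.3 and 26.8 CPM in the WT libraries (log2 fold change 1.98 ± 0.17 (SE), adjusted p = 2.54e-09), and higher than in the other 6 mutants by 1.47 ± 0.11 (SE), adjusted p = 6.59e-10. The nuclear envelope protein gene ish1 was at 74.8, 72.8 and 61.1 CPM in cft1-L249Q, against 33.4, 37.0 and 34.7 CPM in WT (log2 fold change 0.99 ± 0.08 (SE), adjusted p = 1.63e-09). Of the trehalose genes, tps1, the synthase, rose by 0.82 and ntp1, the trehalase, by 0.77. Of 19 heat shock chaperone genes 14 rose and 1 fell, with a median of 0.29. The DNAJ-type gene psi1 was at 246, 241 and 236 CPM in the cft1-L249Q libraries, against 106, 101 and 99.5 CPM in the WT libraries (log2 fold change 1.24 ± 0.09 (SE), adjusted p = 3.64e-10), and hsp78, the mitochondrial disaggregase, at 317, 329.6 and 329 CPM in the cft1-L249Q libraries, against 161, 159.6 and 161 CPM in the WT libraries (log2 fold change 1.02 ± 0.07 (SE), adjusted p = 5.32e-11). The genes ssa1, an Hsp70, and hsp104, the cytosolic disaggregase, rose by 0.94 and 0.94. Against the other 6 mutants, 15 redox genes, 14 general stress genes and 11 chaperone genes were higher and 2, 1 and 2 lower.

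Most proteasome subunit genes rose by small amounts. Of 35 genes 26 rose and 2 fell, with a median of 0.14 and a highest value of 0.28. The lowest value, -0.45 for rpt6, was not called. The core particle subunit gene pup3 was at 213, 216 and 225 CPM in cft1-L249Q, against 178, 184 and 175 CPM in WT (log2 fold change 0.28 ± 0.03 (SE), adjusted p = 3.06e-07). Against the other 6 mutants 14 of the 35 were higher and 3 lower, with a median of 0.03.

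**Figure D4:**
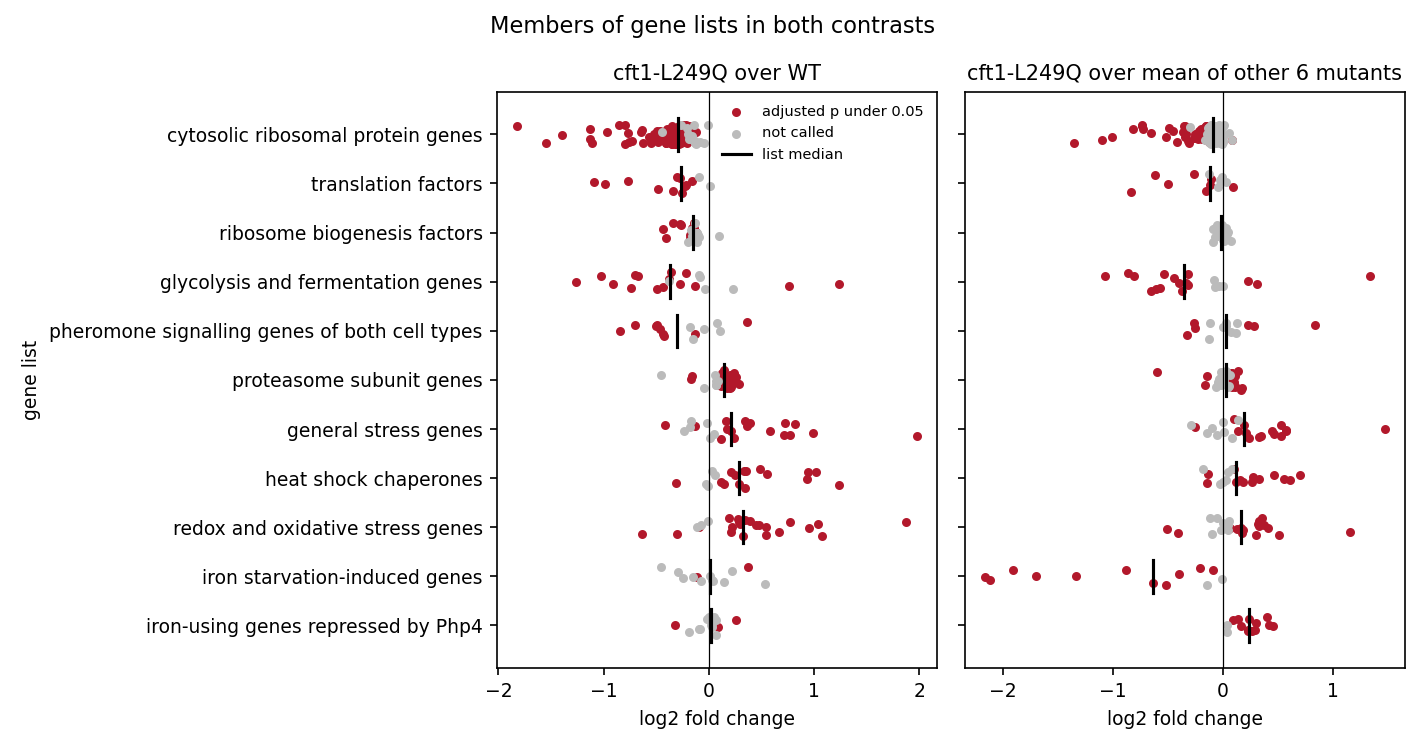
Log2 fold changes of the tested members of 11 gene lists, in cft1-L249Q over WT (left) and over the mean of the other 6 mutants (right). Red points had an adjusted p under 0.05, grey points did not, and black bars mark list medians, such as -0.29 for cytosolic ribosomal protein genes and 0.32 for redox genes over WT.

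Iron genes differed between cft1-L249Q and the mean of the other 6 mutants, among which they spread widely, while few were called against WT. Of 13 genes that rise in iron starvation 1 rose and 1 fell against WT, with a median of 0.01, while 11 were lower than in the other 6 mutants and none higher, with a median of -0.64. Of 14 iron-using genes that the repressor subunit Php4 shuts off, 2 rose and 1 fell against WT, with a median of 0.02, while 12 were higher than in the other 6 mutants and none lower, with a median of 0.24. Against WT the few calls moved with the library left out: in the first list 2 rose with the replicate block and without cft1-L249Q replicate 3, and none fell without cft1-L249Q replicate 3, without WT replicate 2 or from the 6 libraries alone. In the second 1 rose without cft1-L249Q replicate 3, without WT replicate 2 or from the 6 libraries alone, and 2 fell with DESeq2 and without WT replicate 2. The following genes were named after their values were seen. The iron permease gene fip1 was at 21.9, 23.5 and 33.2 CPM in the cft1-L249Q libraries, against 22.3, 21.6 and 32.7 CPM in the WT libraries, and at 23.1 to 743 CPM in the libraries of the other 6 mutants (difference from their mean -1.70 ± 0.18 (SE), adjusted p = 1.31e-07). The siderophore transporter gene str1 was at 14.6, 16.9 and 30.8 CPM in the cft1-L249Q libraries, against 20.7, 18.9 and 44.6 CPM in the WT libraries, and at 9.16 to 551 CPM in those of the other 6 mutants (difference -1.91 ± 0.28 (SE), adjusted p = 1.19e-05). The group means of the other mutants ran from 37.9 CPM in pfs2-E104A to 728 CPM in msi2-G252E for fip1 and from 19.03 CPM in pfs2-E104A to 518 CPM in msi2-G252E for str1, so their mean is not the level of each, and cft1-L249Q libraries overlapped with libraries of other mutants for both genes.

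Transporters of other nutrients showed WT replicate 2 apart from the other WT libraries. The zinc transporter gene zrt1 was at 122, 119.9 and 115 CPM in the cft1-L249Q libraries, against 186, 441 and 177 CPM in the WT libraries (log2 fold change -1.17 ± 0.27 (SE), adjusted p = 0.00138), and its log2 fold change was -0.60 without WT replicate 2. The glucose transporter gene ght5 was at 109.5, 114 and 121 CPM in the cft1-L249Q libraries, against 172, 333 and 212 CPM in the WT libraries (log2 fold change -1.06 ± 0.22 (SE), adjusted p = 5.79e-04). Both genes were lower in every cft1-L249Q library than in every WT library. Of 8 hexose transporter genes 4 fell and none rose, and of 12 zinc and copper genes 3 fell and none rose. Of the 4 hexose transporter falls, those of ght1, ght2 and ght8 were lost without WT replicate 2, and the list counted 2 falls without cft1-L249Q replicate 1 or 2 or from the 6 libraries alone. Of the zinc and copper genes 5 fell without cft1-L249Q replicate 2 or WT replicate 1, and 1 rose without WT replicate 3.

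Several genes of the mating pathway were lower than in WT, the M-cell gene mfm2 most. Cells of type h- are M cells, which secrete M-factor, and cells of type h+ are P cells. Of 8 M-cell genes 4 fell and 2 rose. The M-factor precursor gene mfm2 was at 2.18, 1.65 and 1.74 CPM in the cft1-L249Q libraries, against 46.5, 50.8 and 36.2 CPM in the WT libraries (log2 fold change -4.57 ± 0.15 (SE), adjusted p = 8.90e-16), from 135 reads in all cft1-L249Q libraries and 3357 in all WT libraries. It was also below every library of the other 6 mutants, which ran from 11.1 to 45.2 CPM. The receptor gene for P-factor, mam2, was at 3.49, 2.67 and 2.78 CPM in the cft1-L249Q libraries, against 6.75, 8.55 and 7.61 CPM in the WT libraries (log2 fold change -1.35 ± 0.12 (SE), adjusted p = 4.19e-09), and the M-factor exporter gene mam1 at 44.2, 41.2 and 42.2 CPM in the cft1-L249Q libraries, against 69.6, 73.9 and 65.5 CPM in the WT libraries (log2 fold change -0.71 ± 0.06 (SE), adjusted p = 2.60e-09). The isoprenylcysteine methyltransferase gene mam4 fell by 0.26, a call lost without cft1-L249Q replicate 2 or 3. The adhesion gene mam3 rose by 0.16 and mfm3, another M-factor precursor gene, by 0.61; both calls were lost without cft1-L249Q replicate 1, cft1-L249Q replicate 2 or WT replicate 3 and from the 6 libraries alone, that of mfm3 also with DESeq2 and that of mam3 also without WT replicate 2. The precursor gene mfm1 stood at -0.95 and sxa2, a carboxypeptidase gene, at 0.14, neither called.

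Of 5 P-cell genes none rose and 1 fell, map1, a MADS-box transcription factor gene, with 6.68, 6.98 and 7.70 CPM in cft1-L249Q, against 9.83, 11.5 and 10.2 CPM in WT (log2 fold change -0.56 ± 0.10 (SE), adjusted p = 1.35e-04). The P-factor gene map2 stood at -0.07, the M-factor receptor gene map3 at -0.03, the agglutination gene map4 at -0.18 and the protease gene sxa1 at 0.02, none of them called. In this list 2 fell without cft1-L249Q replicate 2. Of 14 pheromone signalling genes used by both cell types 8 fell and 1 rose, or 2 without cft1-L249Q replicate 2 or WT replicate 2, with a median of -0.30. Compared with the other 6 mutants 3 of the 14 were higher and 3 lower, with a median of 0.03. The transcription factor gene ste11, which turns on sexual differentiation, was at 20.1, 20.3 and 19.4 CPM in the cft1-L249Q libraries, against 33.2, 41.2 and 32.9 CPM in the WT libraries (log2 fold change -0.85 ± 0.19 (SE), adjusted p = 8.39e-04). The G-protein regulator gene rgs1 fell by 0.70. The meiotic RNA-binding protein gene mei2 was at 43.6, 47.2 and 48.6 CPM in the cft1-L249Q libraries, against 68.1, 62.5 and 67.2 CPM in the WT libraries (log2 fold change -0.51 ± 0.13 (SE), adjusted p = 0.00398), yet stood above the mean of the other 6 mutants, by 0.84 ± 0.11 (SE), adjusted p = 1.61e-06. For ste11 the difference from that mean, 0.07, was not called. Among 15 genes of sexual differentiation and nitrogen starvation 6 rose and 2 fell. Those that rose included isp7, an oxygenase family gene (1.11), the ammonium transporter genes amt3 (1.01) and amt1 (0.52), and the amino acid permease gene per1 (0.51).

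Transcripts on one side of the mating-type locus were far lower in cft1-L249Q than in any h- strain. The 4 annotated M genes of mat1 and mat3 themselves held at most 1 read over all 24 libraries, so the cell type could not be read from them. Of the 19 tested genes within 10 places of mat1 in gene order, 9 fell and 1 rose. Compared with the other 6 mutants, 12 of the 19 were lower (63.2%) and 1 was higher (5.26%). The shares among all genes tested were 15.7% and 20.1%. The lncRNA SPNCRNA.388, next to mat1, was at 0.563, 0.356 and 0.435 CPM in the cft1-L249Q libraries, against 30.5, 29.5 and 30.6 CPM in the WT libraries (log2 fold change -6.03 ± 0.36 (SE), adjusted p = 9.61e-12). It was at 13.3 to 46.7 CPM in the other 6 mutants, with a difference of -5.87 ± 0.33 (SE), adjusted p = 6.44e-12. The flavin oxidoreductase gene SPBC23G7.10c, the next gene, was at 1.01, 1.02 and 1.70 CPM in the cft1-L249Q libraries, against 14.7, 13.8 and 14.9 CPM in the WT libraries (log2 fold change -3.54 ± 0.39 (SE), adjusted p = 2.24e-07), and at 16.6 to 81.2 CPM in the other 6 mutants. The third gene, the lncRNA SPNCRNA.1487, was at 3.00, 3.29 and 4.30 CPM in the cft1-L249Q libraries, against 21.3, 21.0 and 19.8 CPM in the WT libraries (log2 fold change -2.55 ± 0.24 (SE), adjusted p = 1.17e-08). For these 3 genes no cft1-L249Q library reached the lowest of the 21 h- libraries.

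Farther out on the same side the differences were smaller. The snoRNA gene snR92, which lies antisense to SPNCRNA.1487, was at 1.05, 0.845 and 0.913 CPM in cft1-L249Q, against 2.58, 3.14 and 2.36 CPM in WT (log2 fold change -1.51 ± 0.32 (SE), adjusted p = 5.63e-04). It too was below every library of the other 6 mutants, which ran from 1.22 to 29.1 CPM (difference -2.10 ± 0.25 (SE), adjusted p = 8.18e-07). The lncRNA SPNCRNA.1488, the eighth gene, was at 12.1, 12.9 and 13.3 CPM in cft1-L249Q, against 23.6, 24.2 and 26.0 CPM in WT (log2 fold change -0.95 ± 0.21 (SE), adjusted p = 0.00111). The DNA glycosylase gene mag2 stood at -0.74, the proteasome gene rpt6 at -0.45, the urea transporter gene SPBC23G7.13c at -0.01, SPBC23G7.14 at -0.08 and the stalk protein gene rpp202 at -0.44, none of them called. From the 6 libraries alone rpt6 and rpp202 were called at log2 fold changes of -0.45 and -0.44 (adjusted p = 3.33e-05 and 0.00161), and for both genes every cft1-L249Q library lay below every WT library. On the other side of mat1 the called values were small. They included -0.30 for cms1, a factor of the small-subunit precursor, 0.23 for nvj2, -0.22 for sui1, the initiation factor eIF1, and -0.13 for mti3, a mitochondrial initiation factor gene whose call was lost with DESeq2 and without any 1 of 5 libraries. The copper transporter gene ctr6 stood at -0.25, adjusted p = 0.0572, and was called in the fit with the replicate block, with DESeq2 and without cft1-L249Q replicate 2 or WT replicate 1. The genes nif1, mas2 and SPNCRNA.536 stood at -0.14, -0.09 and 0.25 and were not called.

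**Figure D5:**
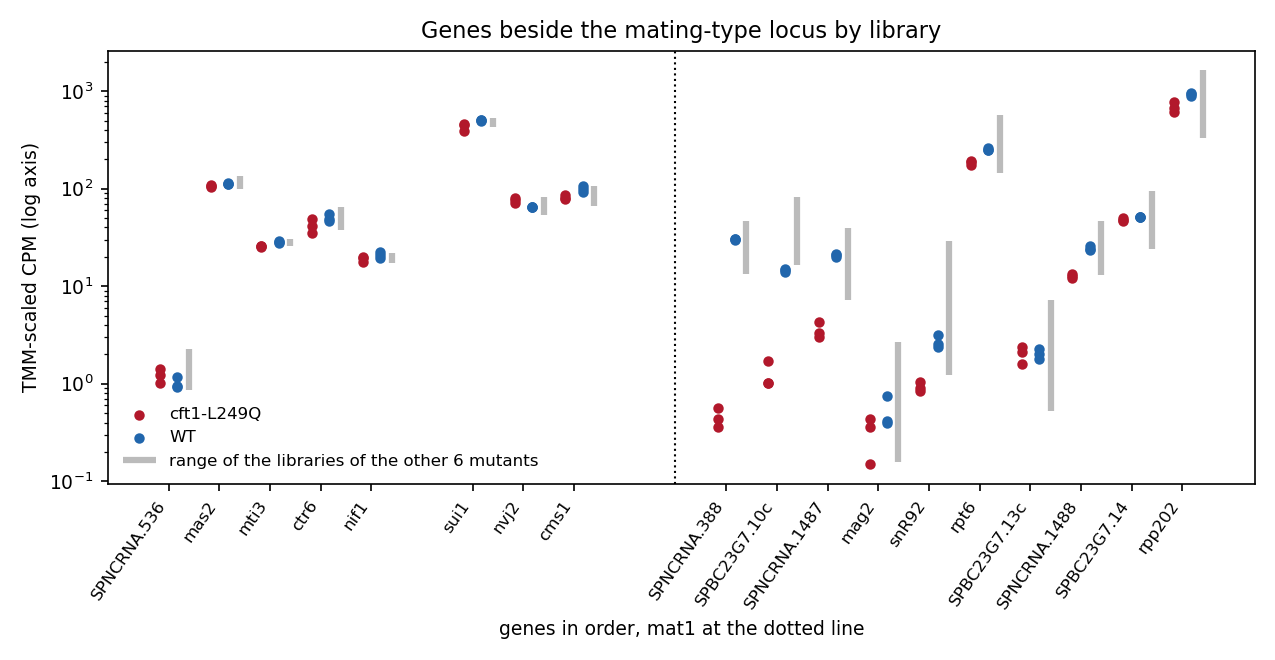
TMM-scaled CPM on a log axis for 18 of the 19 tested genes within 10 places of mat1, in gene order, in the 3 cft1-L249Q libraries (red), the 3 WT libraries (blue) and, as grey bars, the range of the 18 libraries of the other 6 mutants. The first 3 genes to the right of the dotted line are lower in all cft1-L249Q libraries than in any other library.

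Of 1178 lncRNAs tested 247 rose (21.0%) and 151 fell (12.8%), against 22.3% and 21% of all genes tested. Against the other 6 mutants 168 were higher (14.3%) and 169 lower (14.3%), where 20.1% and 15.7% of all genes tested were. Of the 1178 lncRNAs, 59 rose and 14 fell by at least 2-fold against WT. Of all 6287 genes tested, lncRNAs included, 105 (1.67%) and 56 (0.891%) did so. Their reads made up 1.39, 1.23 and 1.17% of the cft1-L249Q libraries, against 1.04, 1.07 and 1.03% of the WT libraries. The annotation marks 192 of the tested lncRNAs as possible alternative UTRs of a neighbouring gene. Of these 66 rose (34.4%) and 20 fell (10.4%, and 13 without WT replicate 2), with a median of 0.21, and of the other 986, 181 rose (18.4%) and 131 fell (13.3%), with a median of 0.02. Among those marked so, SPNCRNA.1618, which overlaps his4 on the same strand, was at 39.7, 36.6 and 38.4 CPM in the cft1-L249Q libraries, against 12.2, 12.1 and 11.3 CPM in the WT libraries (log2 fold change 1.69 ± 0.07 (SE), adjusted p = 1.59e-14). The largest fall among them was SPNCRNA.1156, which overlaps oca2, with 0.864, 0.934 and 1.17 CPM in cft1-L249Q, against 5.58, 5.21 and 6.67 CPM in WT (log2 fold change -2.56 ± 0.17 (SE), adjusted p = 6.31e-11).

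Many of the 1178 tested lncRNAs lie antisense to a protein-coding gene, and so do several of those with the largest rises. Of 959 pairs of a tested lncRNA and a tested protein-coding gene on the other strand, the lncRNA was called in 348. The partner was called too in 166 of these 348, in the opposite direction in 96 and in the same direction in 70. In the 45 pairs whose lncRNA rose at least 2-fold, 15 partners fell and 8 rose. Called partners are to be read as shares of the 348 or the 45 pairs, against the 22.9% lower and 23% higher among all protein-coding genes tested. The library kit marks strand, but the sources used here do not give the strand setting of the counting, so reads of overlapping antisense genes may be mixed. The lncRNA SPNCRNA.1037, antisense to guf1, was at 3.76, 4.71 and 3.74 CPM in the cft1-L249Q libraries, against 0.542, 0.477 and 0.862 CPM in the WT libraries (log2 fold change 2.67 ± 0.20 (SE), adjusted p = 5.89e-10). The guf1 mRNA, for a GTPase of mitochondrial translation, was at 5.37, 5.56 and 6.04 CPM in the cft1-L249Q libraries, against 32.6, 31.5 and 30.7 CPM in the WT libraries (log2 fold change -2.48 ± 0.10 (SE), adjusted p = 2.32e-14). The groups are separate for both, in opposite directions. Both differed from the other 6 mutants as well, SPNCRNA.1037 by 0.92 ± 0.12 (SE), adjusted p = 2.71e-06 and guf1 by -1.02 ± 0.09 (SE), adjusted p = 1.33e-08. The lncRNA SPNCRNA.1271, antisense to ckk2, was at 17.0, 20.6 and 17.0 CPM in the cft1-L249Q libraries, against 2.87, 4.06 and 5.17 CPM in the WT libraries (log2 fold change 2.16 ± 0.16 (SE), adjusted p = 3.35e-10), and SPNCRNA.1579, antisense to swi3, at 8.52, 7.51 and 7.13 CPM in cft1-L249Q, against 1.62, 1.87 and 2.40 CPM in WT (log2 fold change 1.97 ± 0.16 (SE), adjusted p = 1.63e-09). Their partners ckk2 and swi3 had log2 fold changes of -0.27 (adjusted p = 1.08e-04) and 0.07 (adjusted p = 0.237). The annotation marks SPNCRNA.1271 and SPNCRNA.1579 as possible alternative UTRs of a neighbouring gene. The lncRNA SPNCRNA.1100, antisense to hsp3101 (log2 fold change 0.45, adjusted p = 5.76e-05), rose by 1.68, and nam3, which has no antisense partner in the annotation, by 1.54.

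Further genes stood among the largest changes. The eisosome gene fhn1, whose product helps form furrows of the plasma membrane, was at 210.1, 209 and 175 CPM in the cft1-L249Q libraries, against 87.8, 73.4 and 68.6 CPM in the WT libraries (log2 fold change 1.37 ± 0.08 (SE), adjusted p = 1.76e-11), and above the other 6 mutants by 1.02 ± 0.06 (SE), adjusted p = 9.67e-12. The transcription factor gene atf31 was at 15.1, 14.1 and 13.7 CPM in cft1-L249Q, against 5.08, 6.17 and 6.64 CPM in WT (log2 fold change 1.26 ± 0.11 (SE), adjusted p = 2.84e-09). The gene SPCC18B5.02c, for which the annotation names no product, was at 55.1, 60.0 and 52.6 CPM in cft1-L249Q, against 11.3, 13.2 and 12 CPM in WT (log2 fold change 2.20 ± 0.12 (SE), adjusted p = 1.92e-12). The uracil-regulated genes urg1 and urg2 rose by 1.10 and 1.02. Both calls were lost without cft1-L249Q replicate 1, and that of urg1 also without cft1-L249Q replicate 2 or WT replicate 3. Among the falls, tfx1, a translin family gene, was at 7.25, 6.58 and 7.13 CPM in cft1-L249Q, against 17.3, 16.7 and 14.8 CPM in WT (log2 fold change -1.22 ± 0.08 (SE), adjusted p = 5.60e-11), rec7, a meiotic recombination gene, at 0.638, 0.222 and 0.522 CPM in cft1-L249Q, against 1.08, 1.51 and 0.975 CPM in WT (log2 fold change -1.33 ± 0.33 (SE), adjusted p = 0.00222) and psu2, a beta-glucosidase gene, at 1.16, 1.29 and 1.43 CPM in cft1-L249Q, against 2.62, 2.86 and 3.30 CPM in WT (log2 fold change -1.18 ± 0.24 (SE), adjusted p = 4.07e-04).

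At the chromosome ends the RecQ-type helicase genes tlh1 and tlh2, copies that share sequence and so may share reads, were higher. The tlh2 gene was at 10.4, 6.09 and 5.04 CPM in the cft1-L249Q libraries, against 0.583, 0.119 and 0.787 CPM in the WT libraries (log2 fold change 3.84 ± 0.55 (SE), adjusted p = 7.06e-06), and tlh1 held 73 reads over the cft1-L249Q libraries and 2 over the WT libraries, a ratio of 38.4 after scaling (95% interval 10.2 to 323, for counting error only). In the other 6 mutants tlh2 ran from 0 to 15.6 CPM. Of the tested genes among the outermost 50 at each end of chromosomes I and II, 6 of 29 rose and 7 fell at the left end of I, and 2 of 35 rose and 5 fell at its right end. At the left end of II 11 of 31 rose and 2 fell, and at its right end 17 of 36 rose and 4 fell. Of these counts, the 7 falls at the left end of I became 4 without WT replicate 2 and from the 6 libraries alone. At the right end of I the 2 rises became 4 without cft1-L249Q replicate 3 or WT replicate 2, and the 5 falls became 3 without cft1-L249Q replicate 3, 2 without WT replicate 2 or 3 and 1 from the 6 libraries alone. The 2 falls at the left end of II became 1 without cft1-L249Q replicate 3 and 0 without WT replicate 3. The arylsulfatase gene SPBPB10D8.02c, at the left end of chromosome II, was at 32.2, 34.8 and 33.0 CPM in the cft1-L249Q libraries, against 5.50, 9.15 and 6.11 CPM in the WT libraries (log2 fold change 2.27 ± 0.25 (SE), adjusted p = 2.15e-07). Its neighbours SPBPB10D8.03 and SPBPB10D8.04c rose by 1.80 and 1.36. Some falls near the right end of chromosome I rested on uneven WT libraries: ftm4 was at 0, 0.133 and 0.0870 CPM in cft1-L249Q, against 0.0417, 2.71 and 5.14 CPM in WT, a call lost without WT replicate 3, and SPAC750.01 was at 2.103, 7.91 and 4.83 CPM in cft1-L249Q, against 6.54, 40.4 and 31.1 CPM in WT (log2 fold change -2.44 ± 0.51 (SE), adjusted p = 5.12e-04).

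Structural RNAs are sampled poorly in poly(A)+ libraries, and their genes had few reads. Of 48 snoRNA and snRNA genes tested 3 rose, or 5 without cft1-L249Q replicate 3, and 8 fell, with a median of -0.18, and 20 were lower than in the other 6 mutants. Of 24 ribosomal RNA genes, which are near-identical copies, none rose and 10 fell, with reads making up 0.00675% of the cft1-L249Q libraries and 0.0103% of the WT libraries on average. The 5.8S gene SPRRNA.52 was at 5.30, 4.49 and 2.30 CPM in cft1-L249Q, against 14.9, 17.3 and 11.6 CPM in WT (log2 fold change -1.84 ± 0.19 (SE), adjusted p = 7.89e-08). Of 5 Tf2 retrotransposon genes tested, also near-identical, 3 rose and none fell, with Tf2-11 at 11.1, 11.7 and 11.1 CPM in cft1-L249Q, against 4.75, 7.40 and 4.87 CPM in WT (log2 fold change 0.99 ± 0.17 (SE), adjusted p = 5.17e-05).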

How the data were processed

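Poly(A)+ RNA was sequenced in pairs of reads from a strand-marking kit, per the labels' protocols. Per the submitters' processing notes, HISAT2 2.1.0, SAMtools, HTSeq 0.10.0 and DESeq2 were used with the ASM294v2 genome; the strand setting and annotation release are not given in the sources used here. The deposited table holds raw counts per gene and library, without normalization. In the authors' comparison table, per the file headers, baseMean is a normalized signal, the fold change is on the log2 scale with its standard error, the test statistic is a score, and p-values stand raw and adjusted. By the authors' deposited table, 1431 genes were higher and 1402 lower of 6598 with an adjusted p, and 2676 were shared in direction with the edgeR calls.

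Here the counts of all 24 libraries were fitted together, with 1 mean for each of 8 groups and 16 residual degrees of freedom, in edgeR 4.0.16 (R 4.3.3) with TMM scaling, filterByExpr, and the quasi-likelihood test with Benjamini-Hochberg adjustment at 0.05. The biological coefficient of variation was 4.9%, which sets the precision along with depths of 19368216 to 29297880 reads. Names, gene order and overlaps come from a RefSeq annotation of ASM294v3, in which 6836 of 6988 identifiers were found; no coordinates or sequences were taken from it. Members and gene lists were chosen with earlier results of these data known: 29 lists by symbol, of which 10 symbols were not found, and 14 by rule. The text names cft1, asp1, the PHO genes and their lncRNAs; among called genes at least 2-fold apart with separate groups, the 12 protein-coding genes with a symbol and the 5 others with the largest change per direction; up to 6 called members per list; the 6 genes per direction farthest from the other 6 mutants; the mating genes; and the neighbours of mat1, each as far as space allowed. Genes outside this rule are said to be so. The result of 1 further list and that of 1 neighbour of mat1 are not reported here.

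Replicate numbers may pair the samples, but the labels give no batch, and whether the numbers mark one was not tested. The deviations of same-numbered cft1-L249Q and WT libraries from their group means correlated at 0.25, 0.13 and 0.26 over 5320 genes, all above 0.1. Those of differently numbered libraries correlated at -0.23 to -0.04. Deviations from a group mean cancel within each gene, so these values are not independent of each other. The main fit did not pair them. The fit was checked on simulated counts. Alternatives were size factors of the RLE kind, DESeq2 1.42.0, no filter, only the 6 libraries, the replicate block, and leaving out each cft1-L249Q or WT library; no library of the other 6 mutants was left out.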

Additional observations from a re-analysis of the deposited data

How the results depend on the processing

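Against WT, 1405 genes were higher and 1318 lower as reported, 1432 and 1362 with the replicate block, which pairs same-numbered libraries, 1363 and 1324 with DESeq2, 1387 and 1329 with RLE size factors, 1392 and 1300 without the filter, and 1144 and 1054 from the 6 libraries alone. The block changed no call of a named gene except that of ctr6. Leaving out 1 cft1-L249Q or WT library at a time gave 1200 to 1360 higher and 1022 to 1285 lower genes, 89 to 129 and 51 to 60 at least 2-fold. Against the other 6 mutants it gave 939 to 1220 higher and 716 to 1030 lower, 23 to 32 and 30 to 45 at least 2-fold, and in both contrasts 10 to 22 higher and 11 to 23 lower. Genes of lists that fell numbered 3 to 4 for M-cell genes, 3 to 3 for PHO genes, 88 to 130 for ribosomal protein genes, 11 to 14 for glycolysis, 119 to 134 for lncRNAs, 7 to 9 for pheromone signalling, 5 to 17 for ribosome biogenesis and 12 to 13 for translation factors. Those that rose numbered 13 to 15 for general stress genes, 13 to 14 for chaperones, 197 to 264 for lncRNAs, 22 to 29 for proteasome subunits and 18 to 19 for redox genes. No gene under the naming rule changed sign where either fit called it. Medians of several lists near 0 did change sign. That of the iron starvation genes reached -0.09 and that of the iron-using genes -0.0028. That of the mitochondrial ribosomal protein genes reached -0.0075 and that of the lncRNAs not marked as alternative UTRs -0.01. The medians of the P-cell, Mmi1, thiamine, MBF and sulfur lists changed sign too. So did those of the subtelomeric lists at both ends of chromosome I and the left end of chromosome II. Of 231 genes under the naming rule, 48 gained or lost their call, or moved by over 1.5 times, under at least 1 of them; the cause was not tested. Depth limits genes with few reads, such as tlh1 and the ribosomal RNA genes.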

Other observations

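Of 19 nucleotide synthesis and uracil-regulated genes 12 fell and 3 rose in cft1-L249Q against WT, the falls led by fur4, the uracil transporter gene (log2 fold change -0.36), and gua1, the IMP dehydrogenase gene (log2 fold change -0.31). Without cft1-L249Q replicate 1 the 3 that rose became 1, and from the 6 libraries alone the 12 that fell became 7. Of 15 oxygen and sterol response genes 7 fell and 1 rose. The 7 became 3 without cft1-L249Q replicate 1 and 4 without WT replicate 2, and the 1 that rose was lost without either of these or WT replicate 1. In this list erg1, the squalene monooxygenase gene, was at 159, 175 and 183 CPM in cft1-L249Q, against 244, 329 and 242 CPM in WT (log2 fold change -0.65 ± 0.10 (SE), adjusted p = 1.45e-05).

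Amino acid synthesis genes showed different counts in the contrasts. Against WT 8 of 31 fell and 5 rose, and against the other 6 mutants 20 were higher and 2 lower, with a median of 0.12. The gene ilv5, of branched-chain amino acid synthesis, was at 1671, 2009 and 2058 CPM in cft1-L249Q, against 3176, 3219 and 3250.0 CPM in WT (log2 fold change -0.75 ± 0.06 (SE), adjusted p = 2.72e-09), and arg5, of arginine synthesis, at 464, 466 and 473 CPM in cft1-L249Q, against 385, 367 and 386 CPM in WT (log2 fold change 0.30 ± 0.04 (SE), adjusted p = 1.69e-06). Of 20 respiration and alternative carbon genes 4 rose and 2 fell against WT, and 14 were higher and 2 lower than in the other 6 mutants. The mitochondrial glycerol-3-phosphate dehydrogenase gene gut2 was at 66.6, 61.4 and 56.2 CPM in cft1-L249Q, against 41.2, 35.1 and 39.5 CPM in WT (log2 fold change 0.67 ± 0.09 (SE), adjusted p = 2.86e-06) and the 2-oxoglutarate dehydrogenase subunit gene kgd2 at 115, 128 and 131 CPM in cft1-L249Q, against 191, 185 and 206 CPM in WT (log2 fold change -0.64 ± 0.05 (SE), adjusted p = 9.20e-10). Of 14 sulfur and methionine genes 2 rose and 5 fell, of 12 cell surface adhesin genes 2 rose and 3 fell, of 13 MBF cell cycle genes 2 rose and 2 fell, and of 10 histone genes 1 rose and 2 fell. Of 7 thiamine-regulated genes none was called by edgeR or DESeq2, and 1 was lower at an unadjusted p under 0.05, while 2 fell without cft1-L249Q replicate 3. Counts this small moved with 1 library. The 4 respiration genes that rose became 2 without cft1-L249Q replicate 2 or WT replicate 3, and the 2 that fell became 1 without cft1-L249Q replicate 1. The 5 sulfur genes that fell became 3, and the 3 adhesin genes that fell became 1, without cft1-L249Q replicate 1. The adhesin genes that rose became 1 without cft1-L249Q replicate 1, WT replicate 2 or WT replicate 3 and from the 6 libraries alone. The histone genes that fell became 1 without cft1-L249Q replicate 1 or WT replicate 1. Of the MBF genes 1 rose without cft1-L249Q replicate 2 or 3 or WT replicate 1 or 3 and from the 6 libraries alone, and 1 fell without cft1-L249Q replicate 2 or 3 or WT replicate 1 or 2.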
